A study of Mus musculus with 20 samples.

Results

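The peptide IDR1018 was compared with no peptide in the uninjured right brain hemisphere of mice, on 10 of the 20 arrays of the study. The 10 arrays were chosen by their titles, with no use of measured values: 5 right hemispheres of C57/Bl6 mice after LPS-sensitized hypoxia-ischemia that had received IDR1018, and 5 right hemispheres after the same insult without it. IDR1018 is a short synthetic peptide of the innate defence regulator class, made to modulate innate immune responses. The animals were adult per the labels, and the dose of peptide, the dose of LPS and the time of collection are not given in the sources used here.

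All animals of both groups carried the LPS and hypoxia-ischemia treatment, and no sham, LPS-only or peptide-only animals are among the samples. The comparison therefore shows the peptide against its absence in tissue that had met systemic LPS and hypoxia but lay opposite the injury. Each array held total RNA of a hemisphere, with its own specimen number in the labels, labelled with biotin and hybridised to an Affymetrix expression array. The left, injured hemispheres with the same specimen numbers gave the other arrays of the study. They are used below only to set their values and peptide differences beside those of the right hemisphere.

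LPS is a component of bacterial outer membranes that immune cells and vessel walls sense through Toll-like receptor 4, which leads to the release of cytokines and chemokines. Systemic inflammation also raises glucocorticoids, the steroid hormones of the adrenal cortex. Their receptor binds DNA at paired hexamers and raises a well-known group of target genes in glia, neurons and vessels while it restrains inflammatory genes. Innate defence regulator peptides are studied for lowering inflammatory cytokines while leaving or raising other host defence responses.

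The 10 arrays were alike, with median log2 values between 8.20 and 8.23 and correlations between arrays within 0.997 to 0.998 across probe sets. A typical probe set had an SD between replicates of 0.074 without peptide and 0.077 with it (the median over probe sets). Replicate 1 with IDR1018 deviated most from the median array, with an interquartile range of its deviations of 0.108 against 0.081 to 0.102 on the other 9. Sex was unequal: Xist marked 3 males and 2 females without peptide, and 2 males and 3 females with it. Markers of neurons (Snap25, 13.40 to 13.47 over the 10 arrays), astrocytes (Aqp4, 11.06 to 11.26), microglia (Tmem119, 8.29 to 8.73) and oligodendrocytes (Mbp, 10.88 to 11.28) were present in all of them. Control probe sets are assumed here to be those with identifiers before the first annotated one. The control median is the middle log2 value of these probe sets on the same array. The neutrophil genes S100a8 and Ngp, the B cell gene Cd79a and the pituitary hormone gene Prl fell under it on all 10 arrays. Other such genes did so less often, the neutrophil gene S100a9 on 7 arrays and the lymphocyte gene Cd3e and the pituitary genes Gh and Pomc on 0. The chemokine Ccl3, a marker of the injured side, lay between 7.75 and 8.77 on the right against 11.6 to 13.0 on the left, and the injury genes Ccl2, Atf3, Hspa1a and Emp1 did not overlap between the sides either. In whole-hemisphere RNA, fewer cells of a type and less RNA per cell cannot be told apart, which holds for every difference below.

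With IDR1018 a single probe set was called higher in the uninjured hemisphere, a call that several of the alternatives described below removed. No named gene passed the test. Genes of the glucocorticoid response, the cytokine receptor Osmr and the vasoconstrictor Edn1 had higher values, with a median difference of 0.16 log2 units over 17 glucocorticoid response genes and differences of 0.33 for Osmr and 0.41 for Edn1. The chemokine Ccl3, the microglial genes Siglech and Cd180 and the vascular receptor Kdr had lower values, with differences of -0.21 for Siglech, -0.25 for Cd180, -0.31 for Kdr and -0.54 for Ccl3. The glucocorticoid list was drawn up with earlier results of these data known. The single genes named in this paragraph were among the 10 higher or 10 lower genes with the smallest p. These values are therefore descriptions and no independent evidence of a direction. Of the neuronal and myelin genes on the lists described below, 0 had an unadjusted p below 0.05, beside 3.79% of all genes. A count of 0 in lists of this size is near that share.

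By limma with Benjamini-Hochberg adjustment over 28187 probe sets at a threshold of 0.05, 1 probe set was called, 0.00355% of those tested, and 0 of 19937 genes, 0% of them. At an unadjusted p below 0.05 there were 1218 probe sets, 4.32% of all, where chance alone gives 5%. Among genes, 419 or 2.1% had an unadjusted p below 0.05 with higher values under IDR1018 and 336 or 1.69% with lower values. Groups without overlap, meaning that all 5 peptide arrays lay above or below all 5 others, were found for 54 higher genes, 0.271%, and for 49 lower genes, 0.246%. These shares are the background against which the gene groups below are read.

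The difference in deposited log2 values was bounded closely for most genes. The 95% interval of the difference lay within a 1.2-fold change either way for 94.1% of genes, within a 1.5-fold change for 99.8% and within a 2-fold change for 99.96%. The median width of the interval was 0.21 log2 units, and the median standard error 0.047. For the 15356 genes above the control median on at least 5 arrays, the shares within 1.2-fold and 1.5-fold were 96.4% and 99.9%. For dimmer genes a narrow interval bounds the reading and may not bound the change in expression. Among genes above the control median on at least 5 arrays, 5 had a measured difference of 1.5-fold or more, of which Xist, Uty, Kdm5d and Eif2s3y mark sex and the fifth was Lcn2.

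The called probe set, 10398039, is not listed in the platform's gene annotation and is given here by its identifier. Values in this and the following sentences are deposited log2 values in the order of replicates 1 to 5. Without peptide the probe set read 6.65, 6.80, 6.77, 6.49 and 6.72, and with IDR1018 it read 7.28, 7.21, 7.17, 7.22 and 7.32. The groups did not overlap, and the lowest peptide array stood well above the highest array without peptide. The deposited log2 values differed by 0.55 ± 0.058 (SE, n = 5 per group), with an adjusted p of 0.0183 by limma. The signal was weak: all 5 arrays without peptide lay below their own control medians, which ran from 6.74 to 7.01, and all 5 peptide arrays lay above theirs. The level without peptide is therefore only bounded. With each value without peptide replaced by the control median of its array, the mean with IDR1018 was 1.26-fold higher, an estimate given without an interval. It passes a filter on dim probe sets through the peptide arrays alone. In the left hemisphere its difference was 0.17 ± 0.11 (SE, n = 5 per group), with no call, and the difference between the hemispheres' peptide effects had an adjusted p of 1.00 by limma. The call is close to the threshold: its adjusted p ranged from 0.00443 to 0.179 over the alternatives tried and exceeded 0.05 without replicate 1 or 5 of the controls and without each of the 5 peptide arrays in turn (0.0504 to 0.107).

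**Figure D1:**
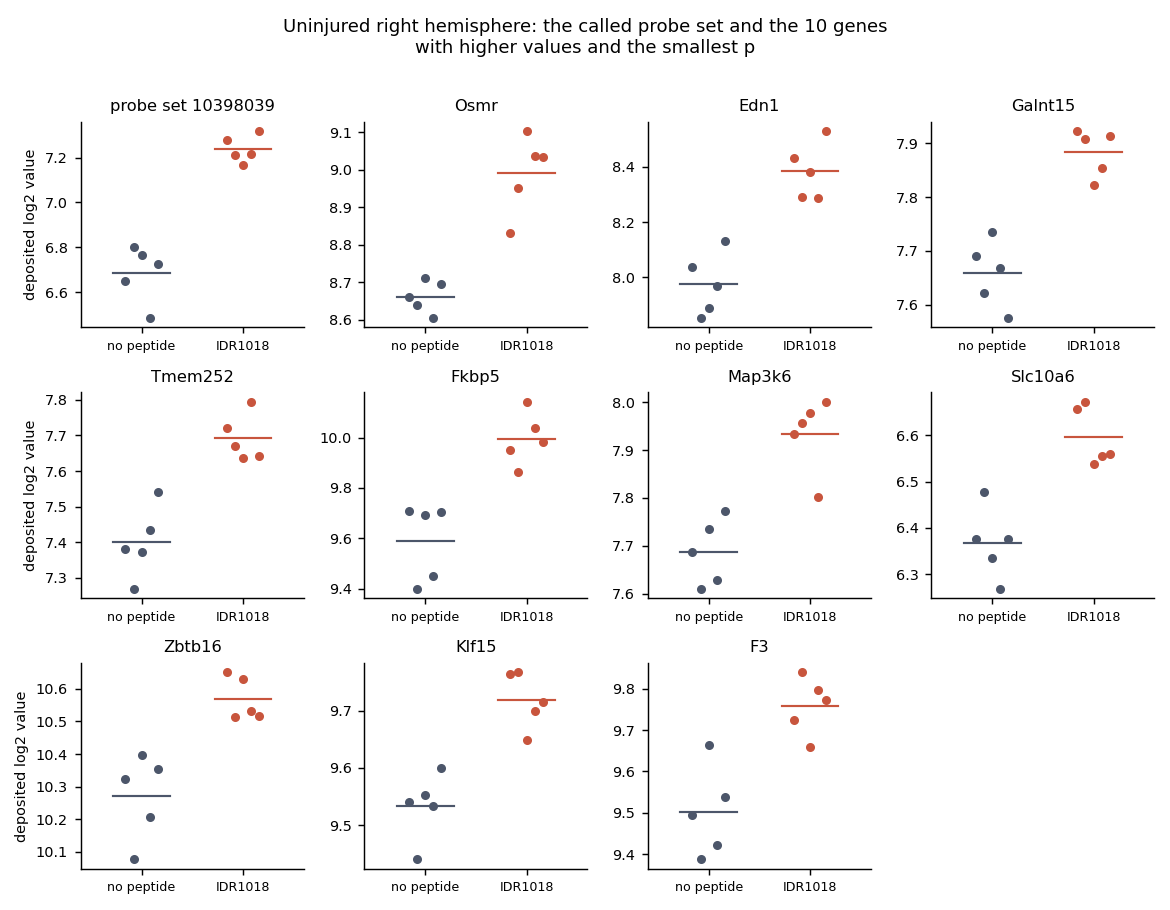
Deposited log2 values (y axis, a separate scale per panel) of probe set 10398039 and the 10 genes with higher values and the smallest p, on 5 arrays without peptide (grey) and 5 with IDR1018 (red) from the right hemisphere; bars are group means. The groups do not overlap in any panel but that of F3, and only probe set 10398039 passed the adjusted test.

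The 10 genes with higher values and the smallest p were Osmr, Edn1, Galnt15, Tmem252, Fkbp5, Map3k6, Slc10a6, Zbtb16, Klf15 and F3, and their adjusted p lay between 0.266 and 0.645. Their differences ran from 0.19 to 0.41 log2 units. In all of them but F3 the groups did not overlap, but they were picked for the smallest p, so this is a description.

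Osmr, the receptor subunit through which oncostatin M signals in astrocytes and vessels, read 8.66, 8.64, 8.71, 8.60 and 8.69 without peptide and 8.83, 8.95, 9.10, 9.04 and 9.03 with it. The control arrays were tightly grouped and replicate 1 was the lowest of the peptide arrays. The difference was 0.33 ± 0.049 (SE, n = 5 per group), 1.26-fold, with an adjusted p of 0.266 by limma. On the injured side Osmr was at a level of about 9.8 in both groups, 9.81 ± 0.16 without and 9.86 ± 0.15 with peptide (SD, n = 5 each). The peptide difference was 0.28 larger on the right than on the left, and this difference between sides did not pass the test (adjusted p 1.00 by limma).

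Edn1 encodes endothelin 1, a vasoconstrictor peptide made by endothelium and reactive glia. It read 8.04, 7.85, 7.89, 7.97 and 8.13 without peptide and 8.43, 8.29, 8.38, 8.29 and 8.53 with it. The highest control, replicate 5, stayed below the lowest peptide array. The difference was 0.41 ± 0.062 (SE, n = 5 per group), 1.33-fold, with an adjusted p of 0.266 by limma. F3, tissue factor, which starts blood coagulation and is made by astrocytes in brain, read 9.50, 9.39, 9.66, 9.42 and 9.54 against 9.72, 9.84, 9.66, 9.80 and 9.77. Its groups touched at replicate 3 of each.

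Klf15, a transcription factor induced by glucocorticoids in several tissues, was not on the list of that response described next. It read 9.54, 9.44, 9.55, 9.53 and 9.60 without peptide and 9.76, 9.77, 9.65, 9.70 and 9.72 with it. The spread within each group was small, and the difference was 0.19 ± 0.039 (SE, n = 5 per group) with an adjusted p of 0.645 by limma. Galnt15, an enzyme that starts O-linked glycosylation of proteins, had a difference of 0.23, the membrane protein gene Tmem252 of 0.29 and the kinase gene Map3k6 of 0.25. Slc10a6, a transporter of sulfated steroids, had a difference of 0.23, but it lay below the control median on all 10 arrays.

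Glucocorticoid response genes had the highest median difference of the 42 gene lists examined. Of its 18 members 17 were measured, and 15 of these had higher values with IDR1018, by a median of 0.16 log2 units over the 17. Over all genes 50.6% had higher values and the median was 0.00055. No member passed the adjusted test. At an unadjusted p below 0.05, 12 members had higher values and 1 had a lower value, beside 2.1% and 1.69% of all genes, and 2 members, Fkbp5 and Zbtb16, had groups without overlap, beside 0.271% of all genes. The list was drawn up with earlier results of these data known, so its count is no independent evidence of a direction. All its measured members are given here whatever rule would name them.

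**Figure D2:**
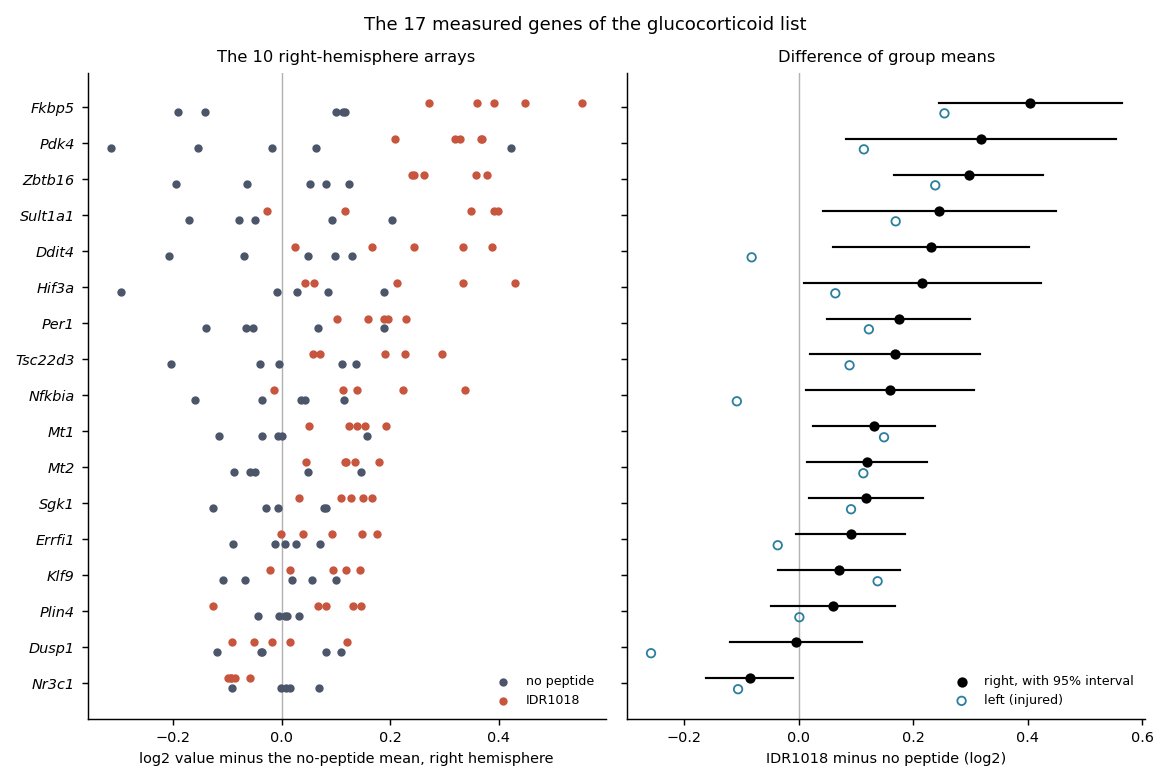
Left panel: the log2 value of each of the 17 measured glucocorticoid response genes on each right-hemisphere array, less the mean without peptide (grey, no peptide; red, IDR1018; 5 arrays each). Right panel: the difference of group means on the right with its 95% interval (black) and on the left (open circles), in log2 units; 15 of the 17 right-hand differences are above 0, and the largest is that of Fkbp5 at 0.40.

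Fkbp5, a co-chaperone that lowers the hormone affinity of the glucocorticoid receptor and is itself induced by it, read 9.71, 9.40, 9.69, 9.45 and 9.70 without peptide and 9.95, 9.86, 10.14, 10.04 and 9.98 with it. Controls 2 and 4 formed the low end, and even the lowest peptide array was above all controls. The difference was 0.40 ± 0.073 (SE, n = 5 per group), 1.32-fold, with an adjusted p of 0.645 by limma. Zbtb16, a zinc-finger transcription factor, read 10.32, 10.08, 10.40, 10.21 and 10.35 against 10.65, 10.51, 10.63, 10.53 and 10.52. Here too the controls 2 and 4 were lowest, and the difference was 0.30 ± 0.060 (SE, n = 5 per group).

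Among metabolic targets, Pdk4, a kinase that shuts off pyruvate dehydrogenase, read 8.41, 8.12, 8.86, 8.28 and 8.50 without peptide and 8.80, 8.75, 8.80, 8.76 and 8.64 with it. Its peptide arrays were close together, while control 3 was higher than all of them. Ddit4, an inhibitor of the growth kinase mTOR, read 10.04, 9.70, 10.01, 9.84 and 9.96 against 10.15, 9.94, 10.08, 10.24 and 10.30, with only peptide replicate 2 inside the control range. Sult1a1, a sulfotransferase, read 8.72, 8.55, 8.58, 8.46 and 8.83 against 8.75, 8.60, 8.98, 9.03 and 9.02. In that gene peptide arrays 3, 4 and 5 were above every control and peptide arrays 1 and 2 were within the control range. The differences of these 3 genes were 0.32, 0.23 and 0.25 log2 units, each with an adjusted p of 1.00 by limma.

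Among regulators, Per1, a clock gene that glucocorticoids induce directly, read 9.87, 9.89, 10.13, 9.80 and 10.01 without peptide and 10.13, 10.10, 10.17, 10.13 and 10.04 with it. Sgk1, a kinase that controls ion transport, read 10.49, 10.39, 10.60, 10.51 and 10.60 against 10.63, 10.55, 10.64, 10.68 and 10.67. Tsc22d3 encodes GILZ, a mediator of the anti-inflammatory action of glucocorticoids, and read 9.16, 8.96, 9.30, 9.13 and 9.28 against 9.22, 9.24, 9.46, 9.39 and 9.36. The groups overlapped through control 3 in Per1 and through controls 3 and 5 in Sgk1 and Tsc22d3, and the differences were 0.17, 0.12 and 0.17. Nfkbia, which encodes the inhibitor that holds NF-kB in the cytoplasm, had a difference of 0.16, and Hif3a, a relative of the hypoxia-inducible factors, one of 0.22.

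The metallothionein genes Mt1 and Mt2, whose products bind zinc and copper, had differences of 0.13 and 0.12. These 12 genes, from Fkbp5 to Mt2, are those with higher values at an unadjusted p below 0.05. Errfi1, an inhibitor of the epidermal growth factor receptor, had a difference of 0.09, the transcription factor Klf9 of 0.07 and the lipid droplet gene Plin4 of 0.06. Dusp1, a phosphatase that ends MAP kinase signals, differed by -0.0045. The receptor gene itself, Nr3c1, read 9.83, 9.82, 9.72, 9.88 and 9.81 without peptide and 9.72, 9.71, 9.76, 9.73 and 9.72 with it. It was the 1 member with lower values at an unadjusted p below 0.05, at -0.09 ± 0.035 (SE, n = 5 per group), with control 3 inside the range of the peptide arrays.

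The mean level over the 17 members was 9.98, 9.85, 10.00, 9.88 and 10.01 on the control arrays and 10.07, 10.04, 10.15, 10.15 and 10.11 on the peptide arrays. These 2 sets of means did not overlap. Among 42 lists the same held only for the neutrophil list, through Lcn2. Peptide arrays 3 and 4 were each among the 5 highest of the 10 arrays for 16 of the 17 genes. Control 2 was the lowest array for 8 of the 17 genes and control 4 for 5. The number of members at an unadjusted p below 0.05 with higher values was 6 without control 2, 7 without peptide array 4 or 5 and 8 without control 4, and between 9 and 13 under the other alternatives. It was 10 with the Xist level as a covariate. The list median stayed between 0.12 and 0.19.

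Blood and choroid plexus markers overlapped between the groups. The mean of the red blood cell list was 6.97 to 7.14 without and 6.97 to 7.23 with peptide, and that of the choroid plexus list was 8.53 to 8.89 and 8.52 to 8.79. The red blood cell list rests on 4 measured genes of 12, with no globin gene among them. Of these, Epb42 and Rhd lay below the control median on all 10 arrays. The list therefore measures blood content only in part. With either mean as a covariate, 12 glucocorticoid response genes had an unadjusted p below 0.05 with higher values. The neutrophil list had means of 6.58 to 6.68 without and 6.70 to 6.79 with peptide. Without Lcn2, which is also on the reactive astrocyte and endothelial activation lists, the means of its other 13 genes overlapped, at 6.39 to 6.42 without and 6.38 to 6.49 with peptide. Of its 14 measured members 9 had higher values and only Lcn2 had an unadjusted p below 0.05. The members S100a8 and Ngp were below the control median on all 10 arrays, S100a9 on 7, and Mmp9, Mpo and Csf3r on 0.

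The RefSeq promoter table of assembly GRCm38.p6 held 16 of the 18 glucocorticoid response genes, with 26 windows of 300 bases, from 250 before to 50 after a transcript start. The receptor hexamer AGAACA, or its reverse complement TGTTCT, was searched on both strands. It was present in 5 of these 26 windows, 19.2%, against 19.0% of all 32851 windows, a share near that of promoters in general. A facing pair of hexamers, AGAACA and TGTTCT with 3 bases between them, was present in 3 of the 32851 windows, and 1 of these belonged to Sgk1. The stretches below are shown because they are the list members and the steroid transporter gene Slc10a6 for which the hexamer lay near a start; they run 5′ to 3′ on the gene's strand, with the hexamers in capitals. Where a gene has several annotated starts, the window with the most hexamers is shown.
Sgk1: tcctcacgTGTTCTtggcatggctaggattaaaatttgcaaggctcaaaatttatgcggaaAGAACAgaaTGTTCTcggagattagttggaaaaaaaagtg
Tsc22d3: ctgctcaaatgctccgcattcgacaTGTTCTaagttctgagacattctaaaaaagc
Sult1a1: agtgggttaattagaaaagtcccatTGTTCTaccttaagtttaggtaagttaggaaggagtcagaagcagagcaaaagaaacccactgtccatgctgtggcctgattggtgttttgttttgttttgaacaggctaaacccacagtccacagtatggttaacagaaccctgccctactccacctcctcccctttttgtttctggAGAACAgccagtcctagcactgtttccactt
Slc10a6: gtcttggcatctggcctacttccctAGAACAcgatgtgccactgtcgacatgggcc

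The Sgk1 stretch is chr10:21993640-21993740 on the plus strand, and its facing pair begins 189 bases before 1 of the annotated starts. That of Tsc22d3 is chrX:140600677-140600732 on the minus strand, with its hexamer beginning 185 bases before the start. Sult1a1, at chr7:126676422-126676655 on the minus strand, has hexamers beginning 212 and 34 bases before the start. The Slc10a6 stretch is chr5:103629537-103629592 on the minus strand, with the hexamer beginning 164 bases before the start. The windows of Fkbp5, Per1, Pdk4, Ddit4 and Klf15 held no such hexamer, nor did those of Osmr, Edn1, Galnt15, Tmem252, Map3k6 and F3. This says only that these letters are not in these windows. Among the lower genes named below, Olfr821, not shown, held 1 hexamer, beginning 174 bases before its start. A match is a description of the sequence and not a bound site.

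Reactive astrocyte genes, which astrocytes switch on after injury or inflammation, leaned higher. Of 19 measured members 14 had higher values, with a median of 0.07; 7 had an unadjusted p below 0.05 with higher values and 1, S1pr3, with lower values. The 7 include Osmr, Fkbp5 and Lcn2 described elsewhere, and without Fkbp5 6 remain of 18 members. Cp, the copper-carrying ferroxidase ceruloplasmin, read 8.85, 8.86, 8.95, 8.75 and 9.05 without peptide and 9.23, 9.04, 9.12, 9.05 and 9.06 with it, with control 5 the only overlap. S1pr3, a sphingosine-1-phosphate receptor, read 9.30, 9.48, 9.41, 9.41 and 9.28 against 9.28, 9.26, 9.22, 9.24 and 9.19, and its groups touch without overlapping. Gfap, the main intermediate filament of astrocytes, differed by 0.07 ± 0.047 (SE, n = 5 per group), within the spread of the replicates. Of the 14 astrocyte transporter and metabolism genes, Gjb6, a gap junction protein, alone had an unadjusted p below 0.05, with a difference of 0.20.

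Lcn2, which encodes lipocalin 2, an iron-siderophore binding protein made by reactive astrocytes, endothelium and neutrophils, showed the largest difference of any gene above the control median on at least 5 arrays that does not mark sex. It read 9.77, 9.08, 10.17, 9.36 and 10.09 without peptide and 10.68, 10.13, 10.89, 10.06 and 10.39 with it. Controls 3 and 5 lay within the peptide range and controls 2 and 4 were lowest, as they were for Fkbp5. The difference was 0.74 ± 0.22 (SE, n = 5 per group), 1.67-fold, with an adjusted p of 1.00 by limma. Its SD between replicates, 0.47 without and 0.35 with peptide, is far above that of a typical probe set.

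Vessel genes were mixed. Of 16 endothelial and blood-brain barrier genes, 8 had higher and 8 lower values, and 1 in each direction had an unadjusted p below 0.05. Slc2a1, the glucose transporter of the barrier, read 11.79, 11.81, 11.73, 11.76 and 12.00 without peptide and 12.12, 11.95, 12.19, 12.06 and 12.01 with it. Kdr, the main receptor for vascular endothelial growth factor, read 9.18, 9.47, 9.12, 9.51 and 9.38 against 9.06, 8.91, 9.11, 9.01 and 9.00. Kdr did not overlap between groups, although controls 1 and 3 came close to the peptide arrays, and Slc2a1 overlapped only through control 5. The differences were 0.25 ± 0.058 for Slc2a1 and -0.31 ± 0.074 for Kdr (SE, n = 5 per group), both with an adjusted p of 0.804 by limma. Of 13 endothelial activation genes, 3 had an unadjusted p below 0.05 with higher values: Lcn2, Ch25h, an enzyme that hydroxylates cholesterol (0.19), and Ptgs2, the inducible cyclooxygenase (0.16). Sele, the E-selectin gene, was the 1 with lower values, at -0.16.

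**Figure D3:**
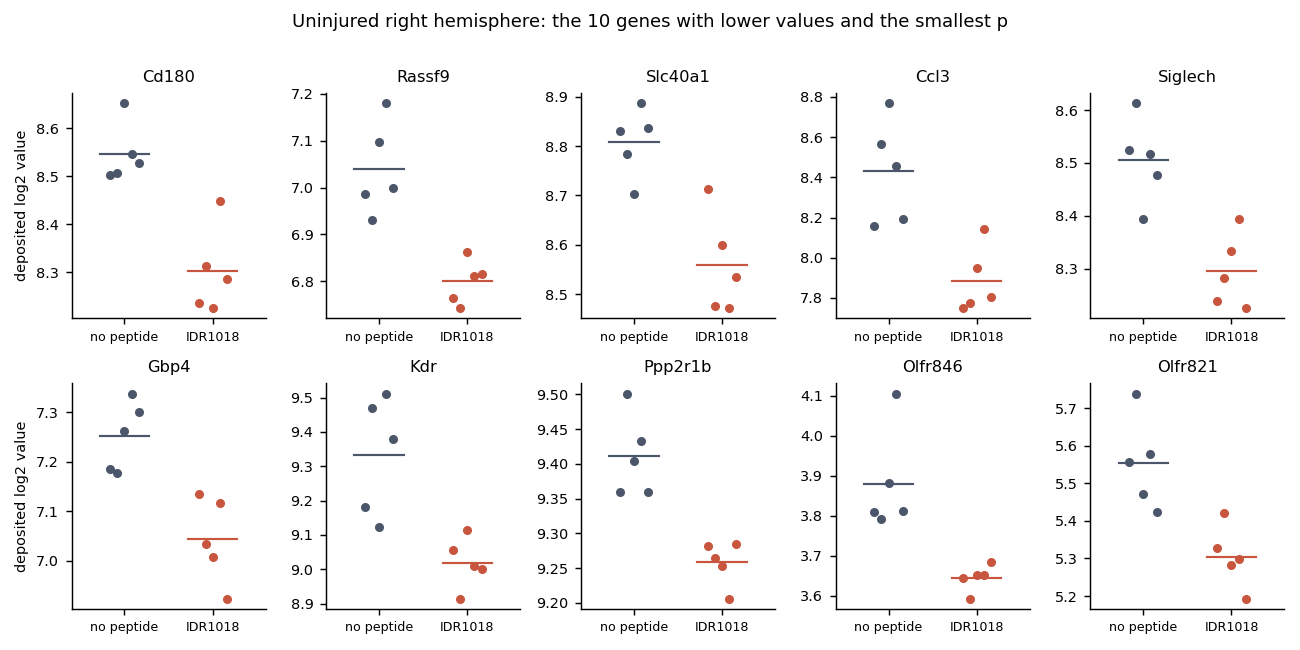
Deposited log2 values (y axis, a separate scale per panel) of the 10 genes with lower values and the smallest p on 5 arrays without peptide (grey) and 5 with IDR1018 (red) from the right hemisphere; bars are group means. Slc40a1 and Siglech are among the panels where the groups meet, and no gene shown passed the adjusted test.

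On the lower side the 10 genes with the smallest p were Cd180, Rassf9, Slc40a1, Ccl3, Siglech, Gbp4, Kdr, Ppp2r1b, Olfr846 and Olfr821, with adjusted p between 0.645 and 0.804 by limma. The odorant receptor genes Olfr846 and Olfr821 lay below the control median on all 10 arrays and Rassf9 on 5 of them. The scaffold subunit gene of protein phosphatase 2A, Ppp2r1b, had a difference of -0.15, and Gbp4, an interferon-induced GTPase, one of -0.21.

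Ccl3, the chemokine MIP-1 alpha that microglia and macrophages release, read 8.16, 8.57, 8.77, 8.45 and 8.19 without peptide and 7.75, 7.78, 7.95, 8.14 and 7.80 with it. Peptide array 4 was nearest to the controls, and the lowest controls, 1 and 5, were just above it. The difference was -0.54 ± 0.12 (SE, n = 5 per group), 1.46-fold lower, with an adjusted p of 0.645 by limma. Its right-hand levels were far below those of the injured side in both groups, and there the difference was -0.48 ± 0.20 (SE, n = 5 per group). The test of the difference between the sides gave an adjusted p of 1.00 by limma.

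Of the 26 measured cytokines and chemokines 6 had higher values, with a median of -0.03. None had an unadjusted p below 0.05 with higher values and 4 had one with lower values: Ccl3, Ccl7, Ccl2 and Il1a. Ccl7 and Ccl2, which draw monocytes, differed by -0.17 each. Il1a, interleukin 1 alpha, differed by -0.22, but lay below the control median on all 10 arrays. Ccl5, the member with higher values and the smallest p, differed by 0.11. Il1b and Il6 were below the control median on all 10 arrays and Tnf on 7, so little can be read from their differences of -0.06, -0.07 and 0.12. Il10 and Il1rn, which encode anti-inflammatory proteins, were also below it on all 10.

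Cd180, a Toll-like receptor homologue found on B cells and microglia, read 8.50, 8.51, 8.65, 8.55 and 8.53 without peptide and 8.24, 8.31, 8.23, 8.45 and 8.29 with it. All peptide arrays were below all controls, with peptide array 4 nearest. The difference was -0.25 ± 0.048 (SE, n = 5 per group), with an adjusted p of 0.645 by limma. Siglech, a lectin of resting microglia, read 8.52, 8.61, 8.39, 8.52 and 8.48 against 8.24, 8.28, 8.33, 8.39 and 8.23, where control 3 and peptide array 4 met. Slc40a1, the iron exporter ferroportin, read 8.83, 8.78, 8.70, 8.89 and 8.84 against 8.71, 8.48, 8.60, 8.47 and 8.54, with peptide array 1 just above control 3.

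Microglial genes of the resting state, Siglech among them, leaned lower. Of 13 measured, 11 had lower values and the median was -0.10; 2 had an unadjusted p below 0.05 with lower values, Siglech and the purine receptor gene P2ry13 (-0.25), and 1 with higher values, Mertk, a receptor for the uptake of dying cells (0.17). Fcrls differed by -0.10. The list mean ran from 8.94 to 9.20 without and from 8.94 to 9.12 with peptide, so the groups overlapped. The median lay between -0.12 and -0.06 over the alternatives, and -0.06 was its value without control 1, without peptide array 1 and with the choroid plexus mean as a covariate. Without control 3, 7 of the 13 had an unadjusted p below 0.05 with lower values. Of 19 genes of phagocytic and activated microglia 12 had higher values and 0 had an unadjusted p below 0.05 in either direction; Cd68, a lysosomal marker, differed by -0.05 and Cd14, a coreceptor for LPS, by 0.10.

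In the receptor systems for LPS the sensor gene Tlr4 lay below the control median on all 10 arrays. Of 20 genes of Toll-like receptor recognition and NF-kB signalling, 2 had an unadjusted p below 0.05 with higher values, Nfkbia and Tlr7. Tlr7, a sensor of single-stranded RNA, read 7.74, 7.55, 7.64, 7.54 and 7.40 without peptide and 7.71, 7.77, 7.94, 7.90 and 7.98 with it, and overlapped through control 1. The difference was 0.28 ± 0.069 (SE, n = 5 per group), with an adjusted p of 0.826 by limma. Of 18 interferon-stimulated genes 0 had an unadjusted p below 0.05, and of 11 inflammasome and interleukin-1 receptor genes 1 had it, Casp4 (0.27), below the control median on all 10 arrays. Receptors through which host defence peptides of this kind can act numbered 7 measured genes; 1, Mrgprb2, had an unadjusted p below 0.05 and was below the control median on all 10 arrays, and P2rx7 differed by -0.05 and Cxcr4 by 0.01.

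Complement genes had higher values in 11 of 12 cases, with a median of 0.04. C4b, Cd59a and Serping1, a component and a pair of regulators of complement, had an unadjusted p below 0.05, with differences of 0.14, 0.19 and 0.14. C4b read 8.72, 8.70, 8.71, 8.70 and 8.75 without peptide and 8.81, 8.98, 8.85, 8.92 and 8.75 with it, so peptide array 5 lay at the level of the controls. Of 16 genes of alternative macrophage activation, 2 had an unadjusted p below 0.05 with higher values, the transglutaminase Tgm2 (0.22) and the interleukin 4 receptor gene Il4ra (0.10), and 1 with lower values, Irf4 (-0.18), which was below the control median on all 10 arrays. Arg1 and Mrc1, often used as markers of that state, differed by 0.03 and -0.04.

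Neuronal genes differed little in list median. Over the 5 lists of pan-neuronal, excitatory, inhibitory, striatal and synaptic genes, the medians lay between -0.02 and 0.01. Of their members 0 had an unadjusted p below 0.05, where 3.79% of all genes did. A count of 0 in lists of this size is near that share and does not show that neurons were unaffected. Snap25, a protein of synaptic vesicle release, read 13.44, 13.44, 13.41, 13.47 and 13.43 without peptide and 13.40, 13.47, 13.46, 13.40 and 13.40 with it, 2 sets that cover the same range. Of 20 immediate early genes, which neurons switch on with activity, 15 had lower values and 2 had an unadjusted p below 0.05, Npas4 (-0.19) and Egr2 (-0.09). Of 14 myelin genes 13 had lower values with a median of -0.05, but 0 had an unadjusted p below 0.05, and Mbp differed by -0.04 ± 0.076 (SE, n = 5 per group). The large spread of Mobp between replicates, from 8.87 to 9.71 among the controls alone, exceeds its difference of -0.16.

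**Figure D4:**
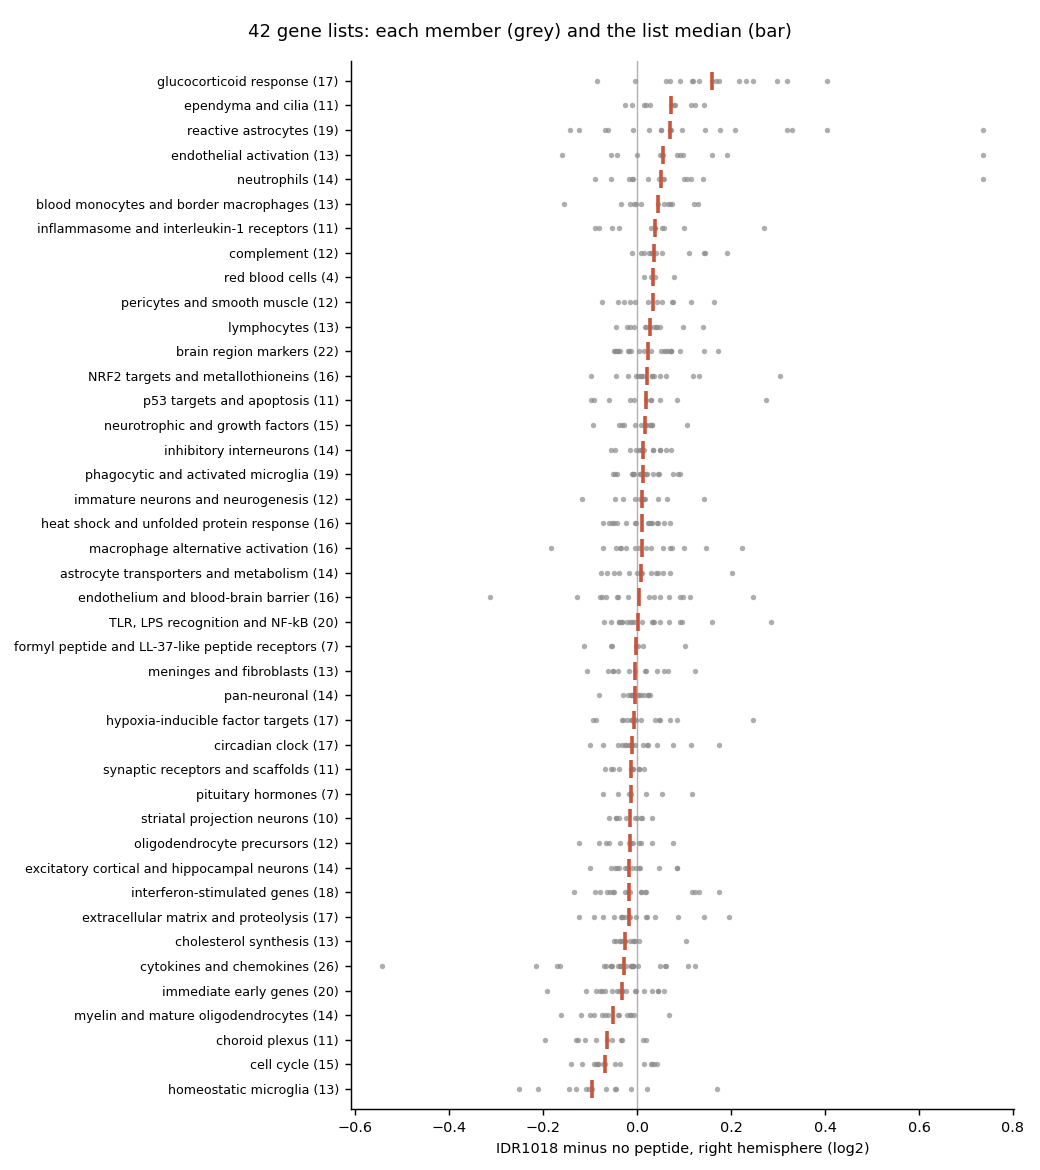
Difference between IDR1018 and no peptide in the right hemisphere (x axis, log2 units) for every measured member (grey points) of 42 gene lists and the list median (red bar), ordered by the median; the number of measured genes is in parentheses. The glucocorticoid response list has the highest median, 0.16, and the homeostatic microglia list the lowest, -0.10.

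Over all 42 lists 567 different genes were measured and 0 passed the adjusted test. At an unadjusted p below 0.05, 37 of them had higher and 14 lower values, where 2.1% and 1.69% of all genes did. The 37 include the 12 glucocorticoid response genes, and the lists were chosen with earlier results of these data known. These counts are therefore no independent evidence of a direction. Among the remaining lists, ependymal genes had higher values in 9 of 11 cases with a median of 0.07, and Ccdc153, a gene of ciliated cells, had an unadjusted p below 0.05. Cell cycle genes had a median of -0.07, with the cyclin gene Ccnb2 at -0.14. The matricellular genes Ccn1 and Ccn2 had differences of 0.14 and 0.20, and the 5 peptide values of Ccn1 were all above the controls, at a margin within rounding for peptide array 2. Of 17 targets of the hypoxia-inducible factors only Slc2a1 had an unadjusted p below 0.05, and Vegfa differed by -0.09. Hif1a differed by -0.02 and Klf4 by 0.06.

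Hmox1, heme oxygenase 1, and Cxcl10, an interferon-induced chemokine, each turned on a single array. Hmox1 read 8.36, 8.35, 8.70, 8.42 and 8.21 without peptide and 9.52, 8.69, 8.43, 8.53 and 8.39 with it. Peptide array 1 was apart from all others, and the difference of 0.30 ± 0.19 (SE, n = 5 per group) was 0.10 without it. Cxcl10 differed by -0.0087, with peptide array 5 below the rest.

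**Figure D5:**
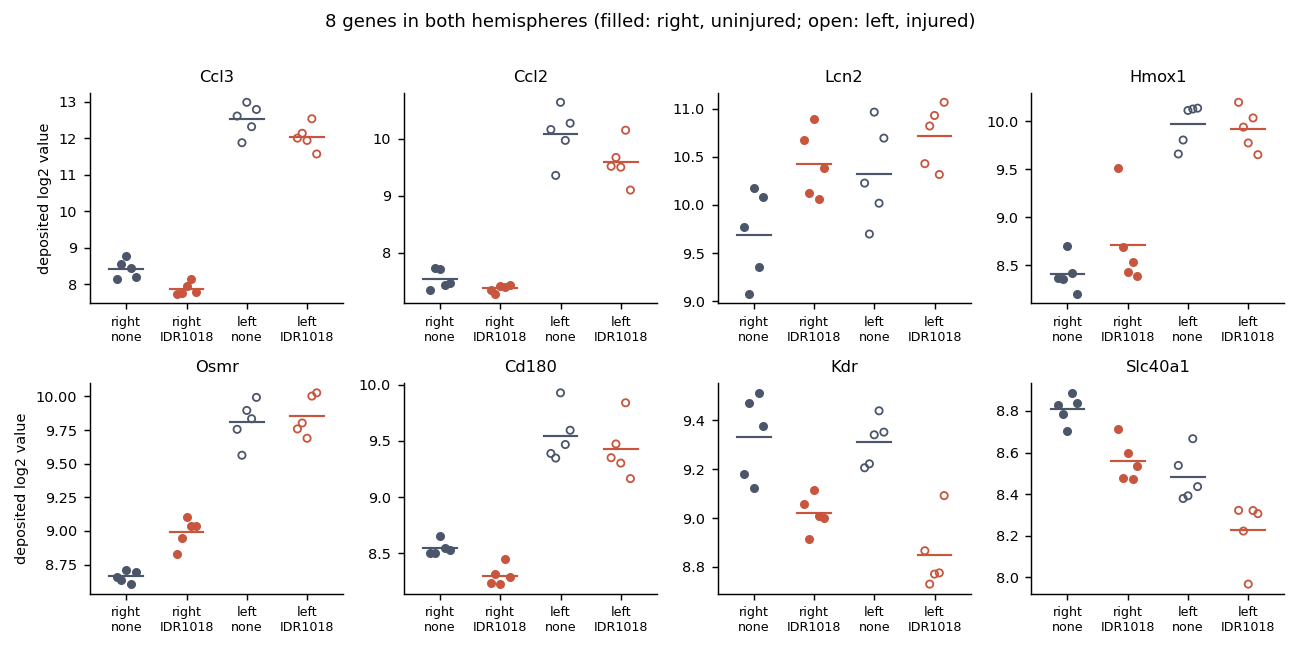
Deposited log2 values (y axis, a separate scale per panel) of 8 genes in 4 groups of 5 arrays: right hemisphere without and with IDR1018 (filled) and left, injured hemisphere without and with IDR1018 (open); bars are group means. The right-hand Ccl3 values lie between 7.75 and 8.77, far below the left-hand ones, while Kdr and Slc40a1 have lower means with peptide on both sides.

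The same comparison in the injured hemisphere of the same animals called 0 probe sets by limma, with 1226 at an unadjusted p below 0.05; among genes 382 or 1.92% were higher and 433 or 2.17% lower at that level. The test of the difference between the right and left peptide effects also called 0 probe sets, with 781 at an unadjusted p below 0.05, among them 504 genes or 2.53%. No difference named here is therefore shown to be particular to the uninjured hemisphere. The glucocorticoid response list had a median of 0.09 on the left against 0.16 on the right. Of its 17 members 15 had the larger difference on the right, where 50.7% of all genes did. That list had the highest right-hand median and was drawn up with earlier results of these data known. The count is therefore a description and no independent evidence of a difference between sides. On the left 4 members had an unadjusted p below 0.05 with higher values, Fkbp5, Zbtb16, Mt1 and Mt2, and 1, Nr3c1, with a lower value. Only Ddit4 had an unadjusted p below 0.05 for the difference between the sides, at 0.23 on the right and -0.08 on the left.

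Kdr and Slc40a1 had lower values with the peptide on both sides. Kdr differed by -0.46 ± 0.070 on the left (SE, n = 5 per group), with an adjusted p of 0.675 by limma, beside -0.31 on the right. Slc40a1 differed by -0.25 on either side, and Rassf9 by -0.23 on the left and -0.24 on the right. Tlr7 had 0.26 on the left and 0.28 on the right. Il1b, which differed by -0.76 ± 0.20 on the left (SE, n = 5 per group), differed by -0.06 on the right, where it was not above the control median, and the test between the sides gave an adjusted p of 1.00 by limma. Klf15 differed by 0.03 on the left against 0.19 on the right, and Ppp2r1b by -0.0083 against -0.15. Both were picked for their small p on the right, so this too is a description.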

How the data were processed

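Total RNA of 20 hemispheres was measured on Affymetrix arrays. Per the submitters' processing notes, the authors deposited log2 values made by RMA in affy 1.38.1; chip definition and background settings are not given in the sources used here. Of 34760 probe sets, 6573 taken as controls (identifiers before the first annotated one) were left out. Of the 28187 tested, 21640 carried 1 symbol, 1321 several and 5226 were not listed; each of 19937 genes is represented by its brightest probe set. The 10 right-hemisphere arrays were fitted with limma 3.58.1 in R 4.3.3 (lmFit, eBayes, Benjamini-Hochberg), with IDR1018 minus no peptide as the contrast; left arrays were fitted likewise, and all 20 for the difference between sides. The script was tested on simulated data. Labels do not say how animals were assigned.

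The text names genes past the test, the 10 higher and 10 lower genes with the smallest p (sex markers left out), and a panel of 20 genes. Up to 4 members of each list described are also named, besides all measured members of the glucocorticoid list. Cxcr4, Arg1, Mobp and a few further list members chosen after their values were seen are named too. The members and lists were chosen with earlier results of these data known. Alternatives changed the samples fitted, filters, normalization, variance model, covariates, replicate block and each array left out. Right arrays were numbered 11, 14, 16, 17 and 18 without peptide and 12, 13, 15, 19 and 20 with it.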

Additional observations from a re-analysis of the deposited data

Results flagged for a closer look

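Over 110 groups of 5 arrays, from 55 genes, 4 arrays or 3.64% stood apart from the rest of their group by Dixon's criterion, where chance gives about 1 group in 20. In the group without peptide, replicate 4 had an Olfr846 value of 4.11 against 3.79 to 3.88 on the other 4 arrays; the gene lay below the control median throughout. In the IDR1018 group, replicate 5 had a Cxcl10 value of 6.96 against 7.32 to 7.44, replicate 1 had an Hmox1 value of 9.52 against 8.39 to 8.69, and replicate 3 had a Plin4 value of 7.51 against 7.71 to 7.79.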

How the results depend on the processing

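The count of called probe sets was 0 in place of 1 with all 20 arrays in the fit, with control probe sets kept, with array number or the choroid plexus mean as a covariate, with the replicate block, and with the mean of all probe sets of a gene, which leaves out unlisted probe sets; leaving out each array in turn gave 0 to 1. Under the first 5 of these settings, in that order, probe set 10398039 had adjusted p of 0.131, 0.0887, 0.0658, 0.0927 and 0.179 by limma. Deviations of same-numbered right arrays, which come from different animals, correlated between -0.016 and 0.13, and 1 of 5 control arrays matched its own number best. Right and left arrays of the same animal correlated between 0.036 and 0.25, a range that overlaps the first. This check therefore cannot tell whether the replicate number matched animals. For the difference between sides, which uses left and right arrays, the animal as a random block (consensus correlation 0.069) also gave 0 calls. The neutrophil means without Lcn2 were computed after seeing the data. In the injured hemisphere leaving out 1 array gave 0 to 1 calls, with 1 without IDR1018 replicate 5 (adjusted p 0.0296 by limma). Of 1255 values for 55 genes, 23 in 6 genes changed sign, all uncalled and none among the 10 higher and 10 lower genes. The cause of these changes was not tested. The number of arrays limits all results.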
